A study of Rattus norvegicus with 24 samples.

Results

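The glucocorticoid receptor, the mineralocorticoid receptor, the enzymes that regenerate or inactivate corticosterone in cells, and 5 genes that glucocorticoids induce were followed in the brains of rat fetuses whose dams received different prenatal insults. The 9 genes were chosen by symbol, namely Nr3c1, Nr3c2, Fkbp5, Tsc22d3, Per1, Sgk1, Ddit4, Hsd11b1 and Hsd11b2, and all 9 were present among the 17420 rows of the deposited expression table. RNA sequencing was done on hippocampus and neocortex of 24 Sprague-Dawley pups at embryonic day 18, with 6 pups of both sexes in each of 4 groups. The dams of the saline group received saline on gestational day 17. The dams of the MAM group received methylazoxymethanol acetate, a DNA-alkylating agent, at 22 mg/kg by the same route and on the same day, and the dams of the Poly I:C group received the double-stranded RNA mimic at 7.5 mg/kg. The Low Protein dams ate a diet with 6.1% protein from gestational day 11 to 18, while controls ate an isocaloric diet with 20.3% protein. The diet of the MAM and Poly I:C dams and any injection of the Low Protein dams are not given in the sources used here. Pups of the injected dams were collected 18 h after the injection. Every group comes from 2 dams with 3 pups taken per litter, so the dam and the treatment are shared by littermates. The p-values below measure the spread between pups, except those of fits on litter means. The litter was read from the number in the sample names.

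In the rat, corticosterone from the maternal and fetal adrenal binds 2 nuclear receptors. The mineralocorticoid receptor (Nr3c2) has the higher affinity, and the glucocorticoid receptor (Nr3c1) is occupied when the hormone rises in stress. The bound receptor leaves its chaperone complex, enters the nucleus and activates genes such as Fkbp5, Tsc22d3, Per1, Sgk1 and Ddit4, which are widely used as readouts of receptor activity. In the fetal brain, Hsd11b2 inactivates corticosterone and limits exposure, while Hsd11b1 regenerates it.

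None of the 9 genes passed the adjusted threshold against saline in any treatment group. Over the 27 comparisons with saline, the lowest adjusted p was 0.465 (limma across 13371 genes, Benjamini-Hochberg), 2 had an unadjusted p under 0.05, and 3 had an exact permutation p under 0.05. The differences lay between -0.24 and 0.22 on the log2 scale, that is between 0.845-fold and 1.16-fold of the saline mean. For the 5 induced genes, the 95% intervals of all 15 comparisons lay between changes of -25.3% and 33.1% from the saline level. At an adjusted p under 0.05, 0% of all genes were called under Low Protein, 0.015% after MAM and 0% after Poly I:C. At an unadjusted p under 0.05, the shares of all genes were 7.11% under Low Protein, 9.62% after MAM and 9.15% after Poly I:C, against 0, 1 and 1 of the 9 genes. The share called among the 9 genes was near that of the whole table.

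**Figure D1:**
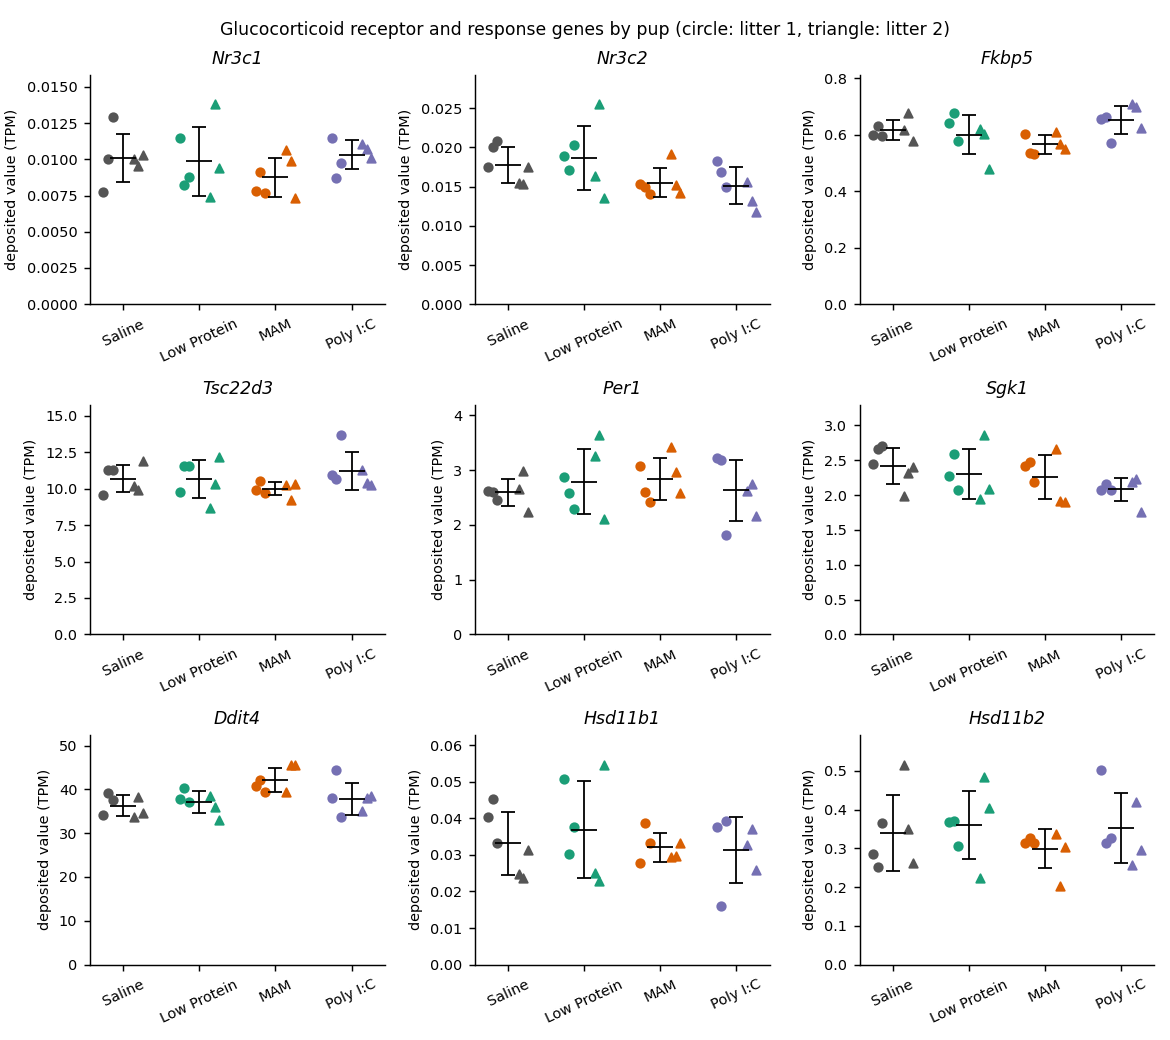
Deposited value of each of the 9 genes in each of the 24 pups, with 6 pups per group. Circles are litter 1, triangles litter 2, and the black bars show the mean and SD of a group. The Ddit4 values of the 6 MAM pups, 39.4 to 45.6, lie above those of the 6 saline pups, 33.6 to 39.3, and the groups overlap in the other 8 panels.

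The deposited values are TPM with a small offset, and here they scale with the genomic span of a gene, introns included. Levels of different genes are therefore compared only per genomic span. On that scale the order of the means over 24 pups ran from Ddit4 at 38.3 and Tsc22d3 at 10.6 through Per1 at 2.71 and Sgk1 at 2.27 to Fkbp5 at 0.608 and Hsd11b2 at 0.337. Hsd11b1 at 0.0334, Nr3c2 at 0.0168 and Nr3c1 at 0.00975 were the lowest. All 9 genes were above the offset in all 24 pups. Reads per pup were estimated at 24.3 to 63.0 M (megareads), with group medians of 33.1 in saline, 42.9 under Low Protein, 41.4 after MAM and 29.9 after Poly I:C. From these, the low genes rested on few reads. Nr3c1 had an estimated 28.9 to 108 reads per pup, Hsd11b1 26.7 to 191, Hsd11b2 43.7 to 148 and Nr3c2 162 to 509. The estimates use gene spans of a later assembly and are approximate.

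Nr3c1, the receptor for stress levels of corticosterone, was at 0.00777, 0.010 and 0.0129 (lowest, median and highest) in saline pups. It was at 0.00741, 0.00911 and 0.0138 in Low Protein, at 0.00733, 0.00847 and 0.0107 in MAM, and at 0.00873, 0.0104 and 0.0115 in Poly I:C. The ranges overlapped in every comparison, with 5 of 6 MAM pups below the saline median. The MAM difference was -0.20 on the log2 scale (SE 0.167, 95% interval -0.55 to 0.14), with an exact permutation p of 0.158. Both MAM litters, at 0.00821 and 0.00928, had lower means than the other 6 litters.

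Nr3c2, the high-affinity receptor, was at 0.0154, 0.0175 and 0.0209 in saline and at 0.0135, 0.0181 and 0.0255 in Low Protein. It was at 0.0141, 0.0150 and 0.0191 after MAM and at 0.0118, 0.0153 and 0.0182 after Poly I:C. In MAM, 5 of 6 pups were below every saline pup, and the sixth, MAM 2.1, was within the saline range. In Poly I:C, 3 of 6 pups were below every saline pup. The differences were -0.20 in MAM (SE 0.153, exact permutation p = 0.0736) and -0.24 in Poly I:C (SE 0.153, exact permutation p = 0.0801). Neither exceeded the gap between litters of 1 group, each a mean of 3 pups, which reached 0.31 in Poly I:C.

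Hsd11b1, which regenerates corticosterone from its inert 11-keto form, was at 0.0237, 0.0323 and 0.0452 in saline. The means were 0.0331 ± 0.00854 in saline, 0.0369 ± 0.0133 under Low Protein, 0.0320 ± 0.00397 after MAM and 0.0314 ± 0.00903 after Poly I:C (SD, n = 6). The saline litters did not overlap, since litter 1 had values from 0.0333 to 0.0452 and litter 2 from 0.0237 to 0.0313. The gap between the saline litter means, each of 3 pups, was 0.58 on the log2 scale and wider than any difference from saline. The limma intervals reached from -0.59 to 0.61. Hsd11b2, the inactivating enzyme, had means of 0.339 ± 0.0979 in saline, 0.359 ± 0.0877 under Low Protein, 0.299 ± 0.0492 after MAM and 0.353 ± 0.0904 after Poly I:C (SD, n = 6). In MAM, 5 of 6 values lay between 0.303 and 0.337, and MAM 2.2 was at 0.202. The MAM difference of -0.15 (SE 0.193) had an exact permutation p of 0.472.

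Ddit4 encodes REDD1, an inhibitor of mTORC1 that responds to glucocorticoids and also to hypoxia, DNA damage through p53, and amino acid shortage through ATF4. It was the only gene of the 9 with a treatment group that did not overlap saline. Its values were 33.6, 36.1 and 39.3 (lowest, median and highest) in saline and 33.0, 37.4 and 40.4 in Low Protein. They were 39.4, 41.4 and 45.6 after MAM and 33.7, 38.0 and 44.3 after Poly I:C. All 6 MAM pups were above all 6 saline pups, and the lowest MAM value was close to the highest saline value. The means were 42.1 ± 2.82 in MAM and 36.3 ± 2.42 in saline (SD, n = 6), a difference of 16.1% (95% interval 6.22% to 26.9%) or 0.22 on the log2 scale (SE 0.0621). The unadjusted limma p was 0.00209, the adjusted p was 0.465, and the exact permutation p was 0.00216, the smallest that 6 pups against 6 can give. Among all genes, 0.217% were higher in MAM without overlap, and 2.15% were higher with an unadjusted p under 0.05. Both MAM litters, at 40.8 and 43.5, were above the other 6 litters, which lay between 35.5 and 38.7. Litters, at 2 against 2, cannot reach an exact p below 0.333.

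Ddit4 was also higher in MAM than in Low Protein (difference of Low Protein from MAM -0.18, SE 0.0621, adjusted p = 0.390) and than in Poly I:C (0.16, SE 0.0621, adjusted p = 0.182). Of the Low Protein pups, 5 of 6 were below every MAM pup, while the MAM and Poly I:C ranges overlapped further, with 2 of 6 MAM pups above every Poly I:C pup. Neither difference passed adjustment. Low Protein and Poly I:C differed from saline by 0.03 and 0.06, with intervals of -0.096 to 0.16 and -0.069 to 0.19. Ddit4 had the lowest p of the 9 genes for any difference among the 4 groups (limma moderated F, unadjusted p = 0.0104, adjusted p = 0.270), where 12.7% of all genes had an unadjusted and 0.157% an adjusted p under 0.05.

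The promoter of Ddit4 is shown because Ddit4 had the only values without overlap with saline. RefSeq windows of 300 bases, from 250 before to 50 after a transcript start (GRCr8), were given for 6 of the 9 genes, in 11 windows. The window below lies on chr20:28436988-28437287, minus strand, and capitals mark the letters ACGTG, a form of the core of the hypoxia response element. The form GCGTG was not searched for in any window. It also stands in this window, unmarked, so the counts below cover ACGTG alone.
Ddit4: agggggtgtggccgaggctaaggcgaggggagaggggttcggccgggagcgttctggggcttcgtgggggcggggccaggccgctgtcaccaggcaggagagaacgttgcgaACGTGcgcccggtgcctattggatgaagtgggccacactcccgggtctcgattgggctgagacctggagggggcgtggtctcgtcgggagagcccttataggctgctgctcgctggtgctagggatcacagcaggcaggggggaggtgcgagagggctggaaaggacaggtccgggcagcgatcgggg
The match starts at -138 from the transcript start. It was found in 1 of the 11 windows, and 19.3% of 33469 windows of all genes hold these letters on either strand. The palindromic glucocorticoid response element, AGAACA and TGTTCT with NNN between them, was in 0 of the 11 windows and in 0.0149% of all windows. Its 6-base arm AGAACA was in 0 of the 11 and in 20.7% of all windows. The E-box CACGTG, which overlaps the hypoxia core in its letters, was in 0 of the 11 (6.42% of all windows), and TGACG was in 1, a Tsc22d3 window (21.2% of all windows). These counts describe the letters in these windows alone.

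Sgk1, a kinase that regulates ion channels and responds within hours to both corticosteroid receptors, was lowest in Poly I:C. Its values were 1.99, 2.43 and 2.70 (lowest, median and highest) in saline and 1.94, 2.18 and 2.87 in Low Protein. They were 1.90, 2.30 and 2.67 after MAM and 1.76, 2.12 and 2.23 after Poly I:C. All 6 Poly I:C pups were below the saline median, and 1 was below every saline pup. The means were 2.08 ± 0.169 in Poly I:C and 2.42 ± 0.258 in saline (SD, n = 6), a difference of -13.8% or -0.21 on the log2 scale (SE 0.0998, 95% interval -0.42 to -0.0079). The unadjusted limma p was 0.0425, the adjusted p was 0.533, and the exact permutation p was 0.0281. Of all genes, 5.3% were lower in Poly I:C with an unadjusted p under 0.05. Both Poly I:C litters, at 2.06 and 2.10, were below the other 6 litters, which lay between 2.16 and 2.60. The saline litters themselves stood at 2.60 and 2.23, and without saline litter 1 the difference was -0.10. The summed level of 6 endothelial markers was 46.2 to 65.0 in saline and 42.7 to 71.7 in Poly I:C, and the part of cell makeup in the Sgk1 values was not tested.

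Fkbp5, a co-chaperone that lowers the hormone affinity of the receptor and is induced by it, showed small differences of opposite sign in MAM and Poly I:C. Its values were 0.579, 0.608 and 0.675 in saline and 0.478, 0.612 and 0.676 in Low Protein. They were 0.533, 0.558 and 0.608 after MAM and 0.571, 0.658 and 0.706 after Poly I:C. All 6 MAM pups were below the saline median and 4 of 6 were below every saline pup. The MAM difference was -0.12 (SE 0.0716, adjusted p = 0.551), with an exact permutation p of 0.0325. It was close to the median of all genes in that comparison, -0.07, and became -0.06 when pups were scaled by the median of ratios. MAM was lower than Poly I:C by -0.20 (SE 0.0716, unadjusted p = 0.00913, adjusted p = 0.133, exact permutation p = 0.00866), in a comparison where 14.1% of all genes were lower with an unadjusted p under 0.05 and 1.08% of all genes had an adjusted p under 0.05.

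Tsc22d3, which encodes the anti-inflammatory protein GILZ, had values of 9.57, 10.7 and 11.9 in saline and 8.68, 10.9 and 12.2 in Low Protein. They were 9.25, 10.1 and 10.5 after MAM and 10.2, 10.8 and 13.7 after Poly I:C. All 6 MAM pups were below the saline median. The MAM difference in mean was -0.09 on the log2 scale (SE 0.0781, exact permutation p = 0.136). It was close to the median of all genes in that comparison, -0.07, and became -0.03 when pups were scaled by the median of ratios. MAM was lower than Poly I:C by -0.16 (SE 0.0781, unadjusted limma p = 0.0560, adjusted p = 0.294, exact permutation p = 0.0152). In that comparison the median of all genes was -0.06, and 14.1% of all genes were lower with an unadjusted p under 0.05. Per1, a circadian clock gene with a rapid glucocorticoid response, had means of 2.59 ± 0.247 in saline, 2.79 ± 0.589 under Low Protein, 2.84 ± 0.380 after MAM and 2.63 ± 0.556 after Poly I:C (SD, n = 6). Its ranges, 2.23 to 2.98, 2.10 to 3.65, 2.41 to 3.42 and 1.82 to 3.21 in the same order, overlapped throughout. The largest Per1 difference from saline was 0.13 in MAM (SE 0.138, exact permutation p = 0.232), and 3 of the 6 MAM pups were above the saline median. In all, 5 of the 54 comparisons between any 2 groups had an unadjusted p under 0.05, namely the 3 of Ddit4 with MAM, Sgk1 in Poly I:C against saline, and Fkbp5 in MAM against Poly I:C. For MAM against Poly I:C these were 2 of 9 genes (17.9% of all genes), for Low Protein against MAM 1 of 9 (8.57%) and for Low Protein against Poly I:C 0 of 9 (4.9%). After adjustment, 0 of the 9 genes passed in the latter comparisons, where 0.0374% and 0.015% of all genes did.

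**Figure D2:**
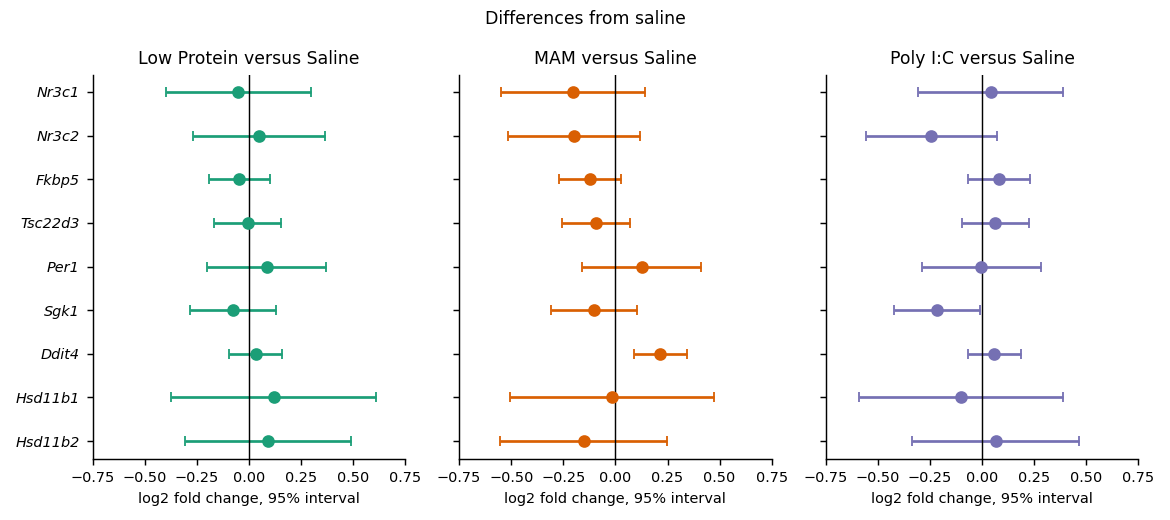
Log2 difference of each gene from saline in each treatment group, with points for the limma estimate and bars for its 95% interval. The intervals exclude 0 for Ddit4 in MAM, 0.087 to 0.34, and for Sgk1 in Poly I:C, -0.42 to -0.0079, and neither passed adjustment.

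The direction of the members also had to be read against the whole table. The median of the 9 genes was 0.03 under Low Protein, -0.10 after MAM and 0.04 after Poly I:C, and the median of all 13371 genes was -0.02, -0.07 and 0.00272. In MAM, 2 of the 9 genes were above saline and 7 were below, while 29.4% of all genes were above. Of the unadjusted calls in MAM, 22.4% were higher than saline, against 65.1% when pups were scaled by the median of ratios and 60.9% by the upper quartile. That share was 37.1% in Low Protein (50.9% and 34.7%) and 42.0% in Poly I:C (45.5% and 25.2%). Ddit4 in MAM was higher under every scaling, by 0.28 under the median of ratios and 0.27 under the upper quartile, with adjusted p-values of 0.229 and 0.286.

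For 7 of the 9 genes, the largest gap between the 2 litters of a group was at least as large as the largest difference from saline. The exceptions were Nr3c1 and Ddit4. A gap between means of 3 pups varies more than a difference between group means even without a litter effect, so this count cannot show one. The estimated correlation within litters over all genes was 0.0075. Littermates had a mean correlation of -0.190, and pups of the same group but the other litter one of -0.194. The tissue labels were checked with 9 forebrain markers, of which 8 were in the table and none was at the offset in all pups. Their summed level was 158 to 288 in saline, 200.5 to 283 in Low Protein, 232 to 281 in MAM and 242 to 305 in Poly I:C. The lowest sum in saline was that of a pup with high ganglionic eminence markers, saline 2.1, where they reached 97.3. Over the 7 ganglionic eminence and striatum markers, none at the offset in all pups, the sums were 46.4 to 97.3 in saline (median 60.0), 39.2 to 58.2 under Low Protein (50.4), 43.0 to 58.6 after MAM (50.5) and 46.0 to 68.6 after Poly I:C (57.6). All 7 were below saline in both Low Protein and MAM, 5 and 3 of them with an unadjusted p under 0.05 (4.47% and 7.46% of all genes) and 0 after adjustment. Among them were Lhx6, a transcription factor of cortical interneurons, at -0.48 (adjusted p = 0.604) and -0.34 (adjusted p = 0.517), and Gad1, which makes GABA, at -0.47 (adjusted p = 0.679) and -0.43 (adjusted p = 0.518). Low Protein 2.2 had the highest sums of endothelial, meningeal and blood markers, at 81.4, 31.3 and 4551. Choroid plexus markers ranged from 32.8 to 245 in Poly I:C. Their part in the results was not tested. The Ddit4 difference in MAM lay between 0.17 and 0.26 when any pup or litter was left out. Without saline 2.1 it was 0.19, and the Sgk1 difference in Poly I:C was -0.27, with adjusted limma p-values of 0.290 and 0.640. Without Low Protein 2.2, the differences of the 9 genes in Low Protein lay between -0.15 (Nr3c1) and 0.24 (Hsd11b1), with adjusted p-values of 0.781 or more. In tissue RNA, fewer cells of a type and less RNA per cell cannot be told apart.

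Genes of the receptor machinery and of the pathways that share the induced genes were then counted. Of 16 chaperones and coregulators of the receptor, 15 were tested, and none passed adjustment. In MAM all 15 were below saline, with a median of -0.08 beside -0.07 for all genes, and 4 had an unadjusted p under 0.05 (7.46% of all genes were lower at that threshold). The lowest of the list was Hspa4, a HSP70-family chaperone, at -0.22 (SE 0.0841, adjusted p = 0.517). In Poly I:C, 2 were higher at the unadjusted threshold (3.84% of all genes), and the highest was Hspa8, the constitutive HSC70, at 0.15 (SE 0.0535, adjusted p = 0.384). The lowest in Poly I:C was the coactivator Ncoa1 at -0.09. In Low Protein 0 passed, and the list ran from Ncoa1 at -0.10 to the co-chaperone Stip1 at 0.07.

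Among 20 other genes known to be induced by glucocorticoids, 0 passed adjustment in any group. At the unadjusted threshold, 1 was higher and 2 were lower in Low Protein, 2 were higher and 0 lower in MAM, and 0 were higher and 3 lower in Poly I:C. The shares of all genes were 2.64% and 4.47%, 2.15% and 7.46%, and 3.84% and 5.3%. The medians were 0.04, 0.07 and -0.06. The highest value in MAM was that of Mt2A, a metallothionein, at 0.61 (SE 0.236, adjusted p = 0.517), and Mt2A was the lowest of the list in Low Protein, at -0.27 (SE 0.236). In Poly I:C the lowest was Lcn2, a secreted acute-phase protein, at -0.62 (SE 0.236, adjusted p = 0.424), and the highest was Mt1 at 0.25. The highest in Low Protein was the gap junction gene Gjb6 at 0.47, and the lowest in MAM was Errfi1, a feedback inhibitor of EGF receptors, at -0.15. Dusp1, the phosphatase that ends MAP kinase signals, and Rhob were the 2 genes lower at the unadjusted threshold in both Low Protein and Poly I:C, and they are named after their values were seen. Dusp1 was at 11.6 ± 0.477 in saline, 10.3 ± 0.685 under Low Protein and 10.6 ± 0.365 after Poly I:C (SD, n = 6), with adjusted limma p-values of 0.330 and 0.348. Angptl4, also named after its values were seen, went the other way and was higher at the unadjusted threshold in both Low Protein and MAM. Its differences were 0.36 and 0.34 (SE 0.161), with adjusted limma p-values of 0.679 and 0.518. The comparisons share the saline pups.

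Of 11 peptides, receptors and transporters of the hypothalamic-pituitary-adrenal axis, 9 were tested and 0 passed adjustment. Crh, corticotropin-releasing hormone, was the lowest in Low Protein at -0.90 (SE 0.361, adjusted p = 0.667), with means of 0.250 in Low Protein and 0.460 in saline and overlapping ranges. Serpina6, the corticosteroid-binding globulin of plasma, was the lowest in MAM and Poly I:C, at -1.77 and -1.48, each with an SE of 1.35. It was at the offset in 2 pups of each of these groups and in 0 saline pups, so both values depend on the offset. Pomc, the precursor of adrenocorticotropin, was the highest in Low Protein and MAM, at 0.36 and 0.47 (SE 0.244), and Crhr2 was the highest in Poly I:C at 0.22. At the unadjusted threshold 1 gene was lower under Low Protein (4.47% of all genes), 0 after MAM (7.46%) and 2 after Poly I:C (5.3%), and the medians of the list were -0.10, -0.18 and -0.41.

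The 11 circadian clock genes other than Per1 had 0 adjusted calls. Ciart, a repressor of the clock, was the highest in MAM at 0.57 (SE 0.214, adjusted p = 0.517) and in Low Protein at 0.19, and Per3 was the lowest in Poly I:C at -0.52 (SE 0.206, adjusted p = 0.454). Clock was the lowest in Low Protein and MAM, at -0.13 and -0.21, and the highest in Poly I:C at 0.16. The 9 immediate early genes, which neuronal activity induces along with Per1 and Sgk1, also had 0 adjusted calls. In Poly I:C, 4 of the 9 were lower at the unadjusted threshold (5.3% of all genes), and the list had a median of -0.27. The lowest was Npas4 at -0.89 (SE 0.424, adjusted p = 0.539) and the highest Ier2 at 0.14. In Low Protein 1 was lower (4.47%) and the median was -0.30, from Fosb at -0.84 (SE 1.00, with 1 of the Low Protein pups at the offset) to Fos at 0.39 (SE 0.207). In MAM 0 passed, from Npas4 at -0.72 (SE 0.424) to Fos at 0.26.

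The 3 pathways that also induce Ddit4 gave different pictures. Of 8 p53 targets, 7 were tested, and 2 rose in MAM after adjustment, which were also the only 2 genes of the whole table called in MAM against saline. Cdkn1a, the cell cycle inhibitor p21, was at 1.13 ± 0.0810 in MAM and 0.566 ± 0.0570 in saline (SD, n = 6), a log2 change of 1.00 (SE 0.123, adjusted p = 0.000487). Aen, a nuclease of p53-dependent apoptosis, was at 2.20 ± 0.102 and 1.73 ± 0.150, a change of 0.35 (SE 0.0567, adjusted p = 0.0189). Cdkn1a did not pass adjustment with litter means (adjusted p = 0.654), without MAM litter 2 (0.0640) or without saline litter 1 (0.0932). Aen did not pass in these settings (0.718, 0.803 and 0.928), with the pup number as a replicate block (0.146), with only saline and MAM in the fit (0.0921), without MAM litter 1 (0.133), Low Protein litter 1 (0.0502) or Poly I:C litter 2 (0.0778), or without any 1 of the pups MAM 2.1, MAM 2.3, saline 1.1, saline 1.3 and saline 2.1 (0.0675 to 0.0934). At the unadjusted threshold 3 of the 7 were higher in MAM (2.15% of all genes), the other being Phlda3, an inhibitor of Akt, at 0.55 (SE 0.167, adjusted p = 0.465). The lowest p53 target in MAM was Mdm2 at -0.11 (SE 0.0595). In Low Protein and Poly I:C, 1 p53 target each was higher at the unadjusted threshold (2.64% and 3.84% of all genes), and the lowest was Phlda3, at -0.22 and -0.17. The highest were Bax at 0.12 in Low Protein and Btg2 at 0.19 in Poly I:C.

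All 8 ATF4 targets were above saline in Low Protein, 6 of them with an unadjusted p under 0.05 (2.64% of all genes), and 0 passed adjustment. The median of the list was 0.46, while Ddit4 differed by 0.03. The highest value was that of the pseudokinase Trib3, 1.20 with an SE of 0.897 and with 1 saline pup at the offset, on which its value in all groups depends, and the lowest that of Ddit3, the factor CHOP, at 0.22 (SE 0.0898). In MAM 1 of the 8 was higher (2.15% of all genes) and the median was -0.06, from Asns, asparagine synthetase, at -0.27 to Trib3 at 1.13. In Poly I:C 2 of the 8 were higher (3.84%) and the median was 0.24, from Chac1 at -0.05 to Trib3 at 1.79 (SE 0.897).

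Of 9 genes induced by hypoxia, 0 passed adjustment in any group. Car9, a carbonic anhydrase that is a standard hypoxia marker, was the lowest in Low Protein at -0.77 (SE 0.202, adjusted p = 0.466) and in Poly I:C at -0.46 (SE 0.202, adjusted p = 0.50). Its means were 0.107 ± 0.0216 in Low Protein, 0.134 ± 0.0336 in Poly I:C and 0.183 ± 0.0421 in saline (SD, n = 6). Adm, the vasodilator peptide adrenomedullin, was the highest of the list in all 3 groups, at 0.36, 0.67 and 0.27 (SE 0.260), and the lowest in MAM was Ankrd37 at -0.12. At the unadjusted threshold 2 were lower under Low Protein (4.47% of all genes), 1 was higher after MAM (2.15%) and 2 were lower after Poly I:C (5.3%).

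**Figure D3:**
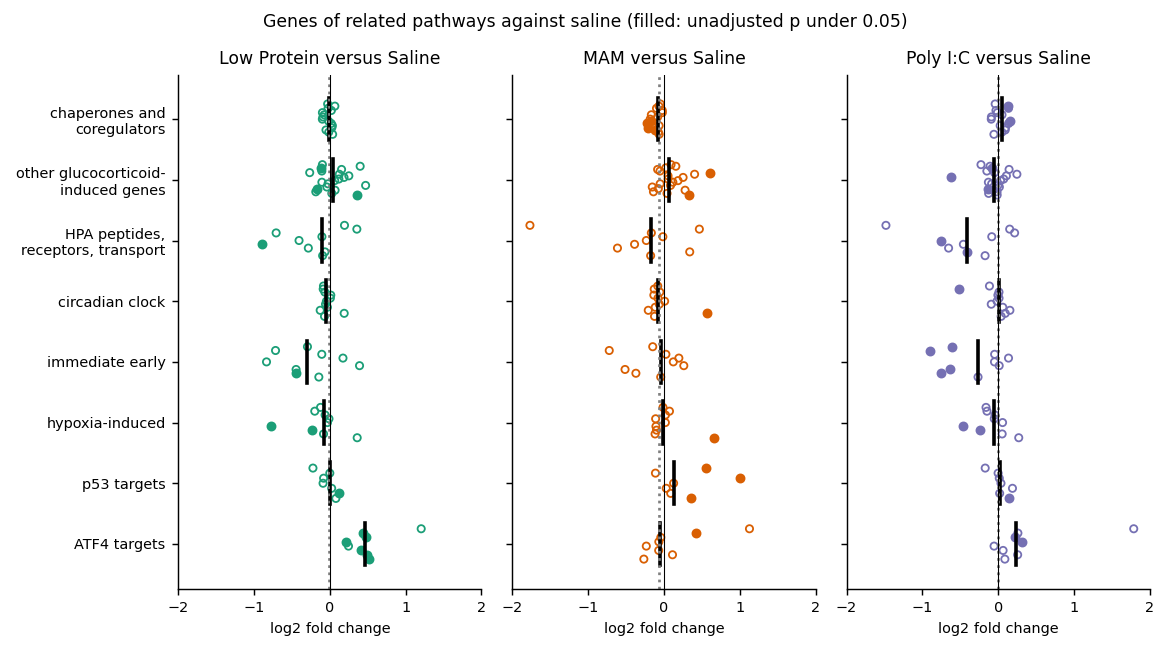
Log2 difference from saline of each tested gene of the 8 lists, with filled points for an unadjusted p under 0.05, black bars for the list's median, and a dotted line for the median of all genes. The ATF4 targets of Low Protein have a median of 0.46, and Cdkn1a in MAM lies at 1.00.

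Whether the induced genes moved together from pup to pup was described with the 10 pairs of Fkbp5, Tsc22d3, Per1, Sgk1 and Ddit4 over 24 pups, which share litters and a table scaled to 1 total. Per1 and Tsc22d3, both induced by glucocorticoids, were opposed, with a Pearson r of -0.65 (permutation p = 0.00060, adjusted 0.0060) and a Spearman rho of -0.54 (permutation p = 0.00709, adjusted 0.0709). The former passed adjustment over the 10 pairs and the latter did not. Without the 2 pups farthest from the median of Tsc22d3, r was -0.46, and with values centred on the litter mean it was -0.68. Within groups of 6 pups, r was -0.76 in saline, -0.78 in Low Protein, -0.63 in Poly I:C and -0.08 in MAM. Poly I:C 1.3 held both the highest Tsc22d3 value, 13.7, and the lowest Per1 value, 1.82. Fkbp5 and Per1 had an r of 0.42 over all pups (permutation p = 0.0397, adjusted 0.130; rho 0.46, permutation p = 0.0260, adjusted 0.130; 0.37 without the 2 farthest pups), and 0.24 when pups were scaled by the median of ratios. Once values were centred on the litter mean, that r was 0.89, and within groups it was 0.92 in saline, 0.56 under Low Protein, 0.94 after MAM and 0.73 after Poly I:C. The other 8 pairs had r between -0.42 and 0.40 and adjusted p-values of 0.130 or more. Centred on the litter mean, their r ran from -0.57 (Fkbp5 with Tsc22d3) to 0.46 (Fkbp5 with Ddit4). Within groups of 6 pups it ran from -0.81 (Sgk1 with Ddit4 in MAM) to 0.95 (Fkbp5 with Ddit4 in Low Protein). No relation of the 9 genes to the estimated reads of a pup passed adjustment over 9 (lowest permutation p = 0.115 for r and 0.127 for rho, both for Fkbp5, with r = -0.33 and rho = -0.32, adjusted 0.644 and 0.749, and r = -0.44 without the 2 pups of most extreme depth).

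**Figure D4:**
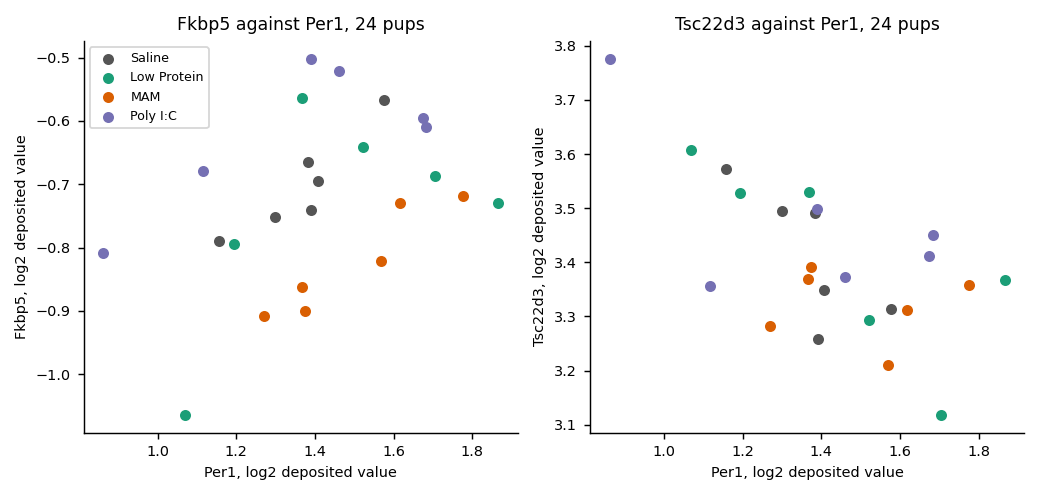
Log2 deposited value of Fkbp5 (left) and Tsc22d3 (right) against that of Per1, with a point for each of the 24 pups coloured by group. Tsc22d3 was lower where Per1 was higher (r = -0.65 over all pups, -0.08 within MAM), and Fkbp5 was higher where Per1 was higher (r = 0.42).

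The genes whose log2 values were most like those of each member over the 24 pups, among 12654 genes, were not genes of the lists above. Fkbp5 was closest to the splicing factor gene Sf1 (r = 0.91) and Cbx2 (0.90), Per1 to Vgll4 (0.91) and Elmsan1 (0.90), and Tsc22d3 to Zfr (0.87) and Arpc2 (0.87). Ddit4 was closest to the mitotic genes Knstrn (0.82) and Cdc25c (0.77), and Sgk1 to Fam107a (0.78) and Slc44a1 (0.72). Nr3c1 was closest to Tgfbi (0.81) and Cdh11 (0.81), Nr3c2 to Slc26a7 (0.77) and Myl1 (0.77), Hsd11b2 to Irx2 (0.81) and Fam163a (0.76), and Hsd11b1 to Cdadc1 (0.65) and Lactb2 (0.64). These pairs were picked as the highest of many and describe these pups.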

How the data were processed

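RNA sequencing of 24 pups was analysed from the expression table. The authors trimmed reads at a phred score of 30 and a minimum length of 25, aligned them to rn6 with STAR (version 2.4.1d), quantified RefSeq transcripts (release 80) with Partek, and deposited TPM to which 0.0001 had been added. The deposited TPM sum to 70350.1 in every pup, and 20.9% of values are at the offset. Columns were matched to samples by number. The members and lists were chosen with earlier results of these data known. Log2 values were fitted by limma 3.58.1 in R 4.3.3 (linear model, eBayes with an intensity trend) over the 13371 genes above the offset in at least 18 of 24 pups, with 1 coefficient per group and all pups in 1 model. The Benjamini-Hochberg adjustment covered all of these genes. Tests are two-sided. Single genes were also compared by exact permutation of pups, and correlations by 100000 permutations. No set test was run. In simulated data for MAM against saline over 13371 genes, the fit recovered 47% of genes changed by 0.5 and 83% of those changed by 1 on the log2 scale. The differences of the members from saline, between -0.24 and 0.22, were smaller than both simulated sizes. Changes of that size were not simulated, so these shares do not give the power to detect them.

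The table holds no read counts, and count models were not used. Depth was estimated from steps of low values times the genomic span. For each pup the step that best fitted these products was chosen from a grid. At that step, 45.5% to 54.1% of the products lay within 0.05 of a whole multiple. Chance gives 10% for a step fixed in advance and more for a step chosen by its fit. Spans come from GRCr8, not rn6, for 15098 genes matched by symbol (86.7%), so reads per gene are approximate. Named genes are the 9 members, list genes with an adjusted p under 0.05 or else the highest and lowest of a list in each comparison, and for each member the 2 genes with the highest correlation. Dusp1, Rhob, Angptl4, Phlda3 in MAM, Aen in Poly I:C, Lhx6, Gad1 and Nkx2-1 were named after their values were seen. Ncoa3, Trp53inp1 and Emx1 had no row under these names, and Ucn and Mc2r were not tested. Alternatives covered the filter, scaling, pseudocount, variance prior, pups in the fit, litter, a block and leaving out pups and litters. The value of 1 list gene that the rule would name is not reported here.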

Additional observations from a re-analysis of the deposited data

Results flagged for a closer look

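In 4 of the 36 groups of 6 pups (9 genes in 4 groups), 1 pup lay far from the other 5 by Dixon's test at 95%, where chance gives about 1.8. Nr3c2 in MAM 2.1 was 0.0191, with the others between 0.0141 and 0.0153. Tsc22d3 in Poly I:C 1.3 was 13.7, with the others between 10.2 and 11.3. Sgk1 in Poly I:C 2.3 was 1.76, with the others between 2.07 and 2.23. Hsd11b2 in MAM 2.2 was 0.202, with the others between 0.303 and 0.337.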

How the results depend on the processing

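Over the 1200 alternative fits of the 9 genes against saline, in 45 settings, 0 gave an adjusted p under 0.05 (limma). Of the 27 differences, 11 kept their sign throughout, among them Ddit4 in MAM (0.17 to 0.28, adjusted p from 0.229 to 0.967) and Sgk1 in Poly I:C (-0.33 to -0.10, adjusted p from 0.333 to 0.930). Others changed sign and were small: Tsc22d3 in Low Protein became 0.019 under median of ratios and 0.0033 under upper quartile scaling, Hsd11b1 in MAM 0.048 and 0.038, and Per1 in Poly I:C 0.0020 with a pseudocount of 1. The r of Fkbp5 with Sgk1 became -0.28, and with Ddit4 -0.091, under median of ratios. When a pup or litter was left out, the differences in Low Protein ranged from -0.15 to 0.026 for Nr3c1, -0.087 to 0.18 for Nr3c2, -0.13 to 0.035 for Fkbp5, -0.049 to 0.052 for Tsc22d3, -0.0083 to 0.18 for Per1, -0.19 to 0.036 for Sgk1, -0.018 to 0.083 for Ddit4, -0.17 to 0.41 for Hsd11b1 and -0.050 to 0.23 for Hsd11b2. In MAM they ranged from -0.22 to 0.0092 for Sgk1 and -0.31 to 0.27 for Hsd11b1. In Poly I:C they ranged from -0.031 to 0.12 for Nr3c1, -0.0038 to 0.13 for Tsc22d3, -0.068 to 0.096 for Per1, -0.39 to 0.19 for Hsd11b1 and -0.075 to 0.21 for Hsd11b2. The cause was not tested.

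The genes with an unadjusted p under 0.05 numbered 951 for Low Protein, 1286 for MAM, 1223 for Poly I:C and 1695 among the 4 groups. The study's filter, which leaves 5086 genes, gave 420, 576, 507 and 833. Litter means, with fewer values, gave 682 in MAM, 807 in Poly I:C and 792 among the groups. Leaving out a pup or litter gave 577 to 1208 in Low Protein, 475 (without saline litter 1) to 1815 in MAM, 641 (without Poly I:C litter 2) to 2390 (without Poly I:C litter 1) in Poly I:C, and 960 (without MAM litter 1) to 2091 among the groups. With the pup number as a replicate block, the Ddit4 difference in MAM stayed at 0.22 with an adjusted p of 0.268, and 1205, 1614 and 1441 genes passed the unadjusted threshold, in the same order of groups. Same-numbered pups of different groups had mean correlations of -0.019 to 0.077, and 8 of 24 pups correlated best with their own number. No chance rate was computed for that count, and an effect shared by pups of 1 number was not tested. The main fit did not use the number as a pairing. Nr3c1, Hsd11b1 and Hsd11b2 rested on at most 191 estimated reads in any pup.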
